A study of Mus musculus with 9 samples.

Results

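Small RNA from the liver of 1 mouse was turned into sequencing libraries with 2 commercial kits, Illumina TruSeq and Bioo Scientific NEXTflex V2, and the resulting libraries were compared miRNA by miRNA and outside miRNAs. They are the 2 libraries labelled as mouse liver among the 9 libraries of the series, and the other 7 come from MIN6 cells, a line derived from a mouse insulinoma. Both liver libraries were made from the same RNA, isolated with a Norgen total RNA kit from whole liver of a female C57BL/6J mouse. That animal was a control of another experiment: it had received saline through the tail vein and was fasted overnight before its organs were taken. Both were sequenced on a HiSeq instrument. There is 1 library per kit, so no difference between the kits has a replicate check and no test is given. Intervals in parentheses are 95% intervals for counting error only, and since reads amplified by PCR are not independent molecules, they are narrower than the true error.

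A miRNA is a short RNA cut from a hairpin precursor, and bases 2 to 8 of its 5′ end, the seed, choose the mRNAs that it represses. Hepatocytes, the main cells of the liver, are known for a very high level of miR-122, which acts in lipid metabolism and is also used by hepatitis C virus, and for miR-192, miR-194 and miR-148a. To be sequenced, a small RNA first has an adapter joined to each of its ends by RNA ligases. TruSeq adapters each have a single fixed sequence, whereas NEXTflex adapters carry random bases at the ends that meet the small RNA. In total RNA, fragments of tRNAs, rRNAs, snoRNAs and mitochondrial transcripts can take the adapters as well.

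The mature sequences below belong to the miRNAs on which the comparison turned. The capitals mark the seed, and the mature sequences and their positions are those of RefSeq on GRCm38.p6, whereas the libraries themselves were aligned to mm9. The first group was higher with TruSeq. miR-192-5p lies at chr19:6264857-6264877 (+), miR-10a-5p at chr11:96317186-96317208 (+), miR-10b-5p at chr2:74726074-74726096 (+), miR-142-5p at chr11:87756867-87756887 (+), miR-191-5p at chr9:108568325-108568347 (+), miR-27b-3p at chr13:63300760-63300780 (+) and miR-148a-3p at chr6:51269829-51269850 (-).
miR-192-5p: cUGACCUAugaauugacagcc
miR-10a-5p: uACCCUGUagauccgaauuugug
miR-10b-5p: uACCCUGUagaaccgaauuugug
miR-142-5p: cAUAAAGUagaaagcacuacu
miR-191-5p: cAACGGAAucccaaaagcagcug
miR-27b-3p: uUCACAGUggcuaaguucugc
miR-148a-3p: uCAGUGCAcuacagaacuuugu

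The second group was higher with NEXTflex. let-7b-5p lies at chr15:85707325-85707346 (+), let-7a-5p of the first hairpin at chr13:48538239-48538260 (-) and let-7c-5p of the second hairpin at chr15:85706616-85706637 (+). miR-152-3p lies at chr11:96850439-96850459 (+), miR-29a-3p at chr6:31062673-31062694 (-) and miR-7a-5p of the first hairpin at chr13:58392841-58392863 (-). let-7a-5p and let-7f-5p, and likewise let-7b-5p and let-7c-5p, have neighbouring hairpins on the same chromosome.
let-7a-5p: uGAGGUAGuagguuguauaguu
let-7b-5p: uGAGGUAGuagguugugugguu
let-7c-5p: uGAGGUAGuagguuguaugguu
let-7f-5p: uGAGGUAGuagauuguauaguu
miR-152-3p: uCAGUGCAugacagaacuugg
miR-29a-3p: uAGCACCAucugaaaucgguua
miR-7a-5p: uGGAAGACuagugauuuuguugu

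The deposited counts summed to about 17876000 in the TruSeq library and to about 14426000 in the NEXTflex library. Aligned reads were 14 to 41 nt long with TruSeq and 14 to 39 nt long with NEXTflex, and alignments without mismatches held 74.0% and 76.1% of the counts. Levels are given as RPMM, the reads at a 5′ start scaled to 1000000 mapped reads, with 16489100 and 14388000 mapped reads as the study's totals. The sum of the deposited counts was 8.41% above that number in the TruSeq library and 0.264% above it in the NEXTflex library. At these depths a count of 0 was set at 3 counts, which is 0.182 RPMM with TruSeq and 0.209 RPMM with NEXTflex. That treats counts as independent molecules, so folds set against it are not firm lower bounds.

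The libraries differed in how many different sequences stood behind these counts. Reads began at 1354717 distinct 5′ positions in the TruSeq library and at 37587 in the NEXTflex library. Among alignments of at least 20 nt without mismatches and with a whole-number count, the TruSeq library held 784659 and the NEXTflex library 9283. The median count behind one of these was 1 with TruSeq and 61 with NEXTflex, and 73.7% and 16.9% of them had a single count. The NEXTflex library thus spread a similar number of counts over far fewer positions, as the plot of counts behind each alignment shows. In MIN6 the order was the same, with 312310 to 489296 positions in 3 TruSeq libraries and 58625 in the NEXTflex library.

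**Figure D1:**
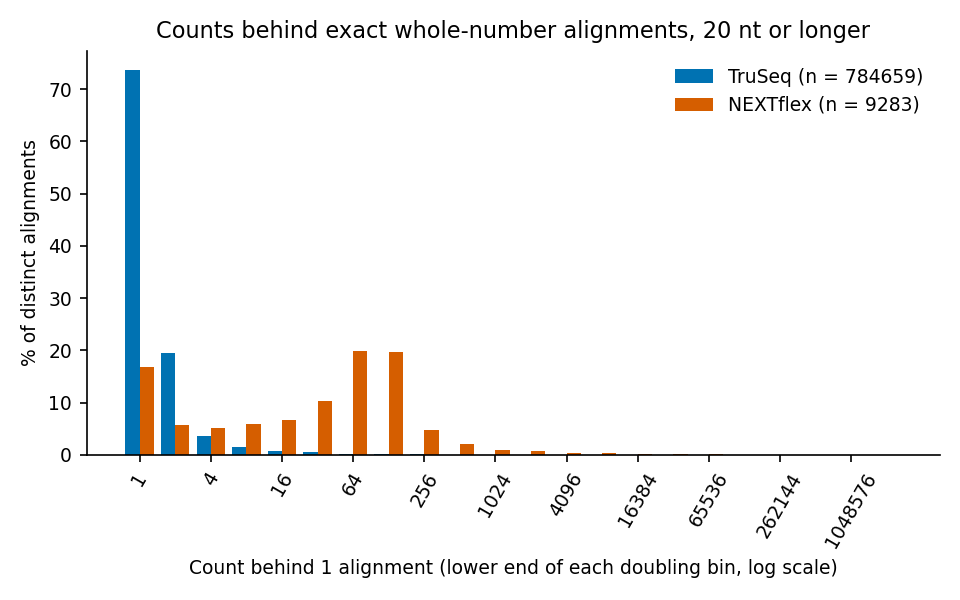
Share of distinct exact alignments of 20 nt or more with a whole-number count (y axis, %) in each doubling bin of the count behind an alignment (x axis, log scale), for the TruSeq and the NEXTflex liver library. TruSeq alignments pile up at a single count (73.7%), whereas the NEXTflex alignments spread around a median of 61 counts.

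Reads at named miRNAs made up 46.1% of all counts with TruSeq (8249048 counts) and 83.5% with NEXTflex (12041276 counts). Much of the miRNA reads of the NEXTflex library belonged to a single miRNA: starts within 5 nt of the miR-122-5p start held 3.49% of miRNA counts with TruSeq and 64.4% with NEXTflex. Without miR-122-5p, the order turned, with 7960824 miRNA counts in the TruSeq library against 4290134 in the NEXTflex library. Levels were therefore also scaled to miRNA reads without miR-122-5p, which raises every plain NEXTflex over TruSeq ratio by 0.70 on the log2 scale (1.62-fold). Values are in RPMM where no scale is named, and starts outside miRNAs are given in RPMM only. Log2 ratios are NEXTflex over TruSeq after 1 unit was added to both values, so that those of starts near 0 in 1 library shift by another amount, such as from -10.25 to -10.66 for miR-10b-5p.

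The study's liver list names 178 miRNA 5′ starts with at least 100 RPMM in 1 of the libraries or both, of 410 starts that it names in liver or MIN6. Of the 178, 129 are reference starts (114 miRNAs once the copies of a miRNA are joined) and 49 are starts shifted by a few bases, called 5′ isomiRs. More than 10-fold differences were found for 40 of the 178 (22.5%), that is 19 of the 129 reference starts (14.7%) and 21 of the 49 shifted starts (42.9%), and for 19 of 131 when starts within 5 nt were summed. With TruSeq 29 were higher (16.3%), and with NEXTflex 11 were higher (6.18%). On the scale of miRNA reads without miR-122-5p, 38 differed over 10-fold (21.3%), 21 of them higher with TruSeq (11.8%) and 17 higher with NEXTflex (9.55%). On both scales 32 starts passed, 21 higher with TruSeq and 11 higher with NEXTflex. Within 2-fold of each other on the RPMM scale were 57 starts.

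The direction of small differences depended on the scale. In RPMM, 69 starts (38.8%) were higher with NEXTflex and 109 (61.2%) with TruSeq, with a median log2 ratio of -0.78. On the second scale, 87 (48.9%) and 91 (51.1%) were higher with NEXTflex and TruSeq, the median was -0.0903, and 18 starts had changed direction. Over the 178 starts, the squared Pearson coefficient of RPMM was 0.0288, and 0.0859 without miR-122-5p. On the log10 scale Pearson's r was 0.495 and Spearman's rho was 0.576. These coefficients describe starts within 1 pair of libraries, which are not independent of each other.

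**Figure D2:**
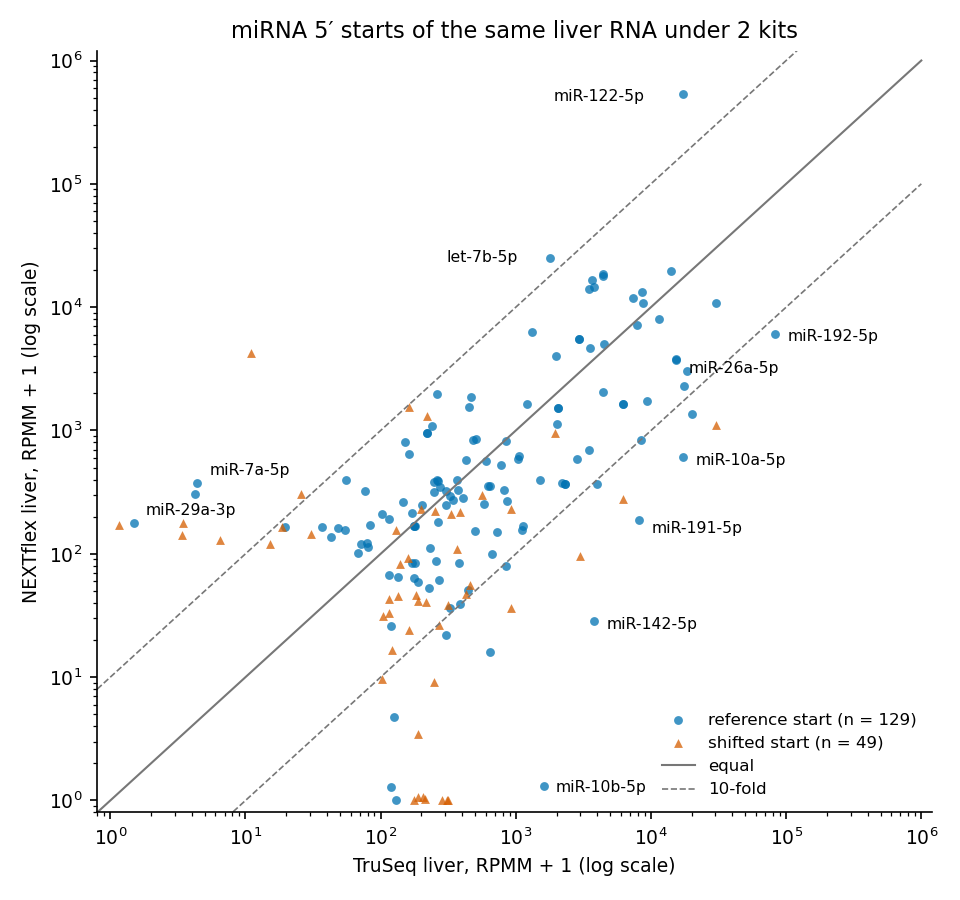
Level of each of the 178 miRNA 5′ starts in the TruSeq library (x axis, RPMM + 1, log scale) and in the NEXTflex library (y axis, RPMM + 1, log scale), reference starts as circles and shifted starts as triangles, with the line of equality and 10-fold lines dashed. Below the lower dashed line lie 29 starts and above the upper one 11, among them miR-122-5p at 17244 RPMM with TruSeq and 532452 RPMM with NEXTflex.

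The kits gave different pictures of which miRNAs dominate liver. With TruSeq the most abundant miRNA was miR-192-5p, with 16.4% of miRNA reads, followed by miR-26a-5p, miR-30a-5p, miR-27b-3p, miR-148a-3p, miR-92a-3p, miR-122-5p, miR-10a-5p, let-7f-5p and miR-21-5p. With NEXTflex it was miR-122-5p, with 63.6%, followed by let-7a-5p, let-7c-5p, let-7b-5p, let-7f-5p, miR-21-5p, miR-194-5p, let-7g-5p, miR-16-5p and miR-30a-5p. The lists share 4 of 10 members: let-7f-5p, miR-122-5p, miR-21-5p and miR-30a-5p. The first 10 held 52.9% of miRNA reads with TruSeq and 86.2% with NEXTflex. Leaving out miR-122-5p, they held 53.8% and 65.9%, and the leading miRNAs were miR-192-5p (17.04%) and let-7a-5p (12.3%).

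All 11 miRNAs of a list of liver and hepatocyte miRNAs were present at 100 RPMM or more in at least 1 library. The list was chosen with earlier results of these data known, so this is no check of the tissue. In MIN6 with TruSeq, miR-148a-3p also had 11335 RPMM and miR-30a-5p 9114 RPMM, whereas miR-122-5p had 0.390 RPMM. In RPMM 4 of the 11 were higher with NEXTflex and 7 with TruSeq, against 38.8% and 61.2% of the 178 starts, and on the second scale 5 and 6. Over 10-fold, 1 was higher with NEXTflex and 2 with TruSeq, against 6.18% and 16.3%. On the second scale 1 of these 2 passed, since miR-192-5p was then 8.43-fold higher with TruSeq. The median log2 ratio of the list was -0.84, against -0.78 over the 178 starts.

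miR-122-5p, the miRNA by which hepatocytes are best known, had 17244 RPMM (17180 to 17307) with TruSeq and 532452 RPMM (532075 to 532829) with NEXTflex. It was 30.9-fold higher (30.8 to 31.0) with NEXTflex, a log2 ratio of 4.95, and on the second scale the log2 ratio was 5.64. The opposite arm of its hairpin, miR-122-3p, went the other way, with 169 RPMM with TruSeq and 83.3 RPMM with NEXTflex. The 3p arm was 2.02-fold higher with TruSeq in RPMM after 1 was added, and it kept this direction on the second scale.

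miR-192-5p and miR-194-5p are typical of liver, gut and kidney epithelium, and the hairpin of miR-192 lies beside one of the miR-194 hairpins on chromosome 19. miR-192-5p had 82266 RPMM with TruSeq and 6026 RPMM with NEXTflex, 13.7-fold higher (13.6 to 13.8) with TruSeq. miR-194-5p had 10684 RPMM with TruSeq and 14899 RPMM with NEXTflex, 1.39-fold higher (1.39 to 1.40) with NEXTflex. The ratio between these partners thus depended on the kit, since miR-192-5p led with TruSeq and miR-194-5p with NEXTflex.

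The other hepatocyte miRNAs split as well. miR-148a-3p, which represses the LDL receptor, had 18624 RPMM with TruSeq and 3056 RPMM with NEXTflex, and miR-30a-5p had 30218 and 10755 RPMM. miR-802-5p, which is linked to glucose metabolism in liver, had 504 and 858 RPMM. Its other arm, miR-802-3p, had 129 RPMM with TruSeq and no count with NEXTflex. With the 0 set at 3 counts it was 617-fold lower, with a lower interval limit of 501.5-fold. miR-378-3p, encoded within the gene of the metabolic coactivator PGC-1β, had 11385 and 7984 RPMM, and its log2 ratio turned from -0.51 to 0.18 on the second scale. miR-101b-3p had 4495 and 5063 RPMM and its relative miR-101a-3p 2017 and 1124 RPMM. Which of these came closer to equal depended on the scale, with log2 ratios of 0.17 and -0.84 in RPMM and of 0.87 and -0.15 on the second scale.

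Members of the let-7 family, regulators of growth and differentiation that share the seed GAGGUAG, lay on the NEXTflex side. All 9 members measured, miR-98-5p included, were higher with NEXTflex on both scales, against 38.8% of the 178 starts in RPMM, and their sum was 40607 RPMM with TruSeq and 141457 RPMM with NEXTflex, 3.48-fold higher. The size of the difference was not shared. let-7b-5p had 1800 RPMM with TruSeq and 25166 RPMM with NEXTflex, 13.98-fold higher (13.8 to 14.2). let-7a-5p had 8853 and 36677 RPMM, let-7c-5p 7131 and 30669 RPMM, and let-7g-5p 3784 and 14515 RPMM. At the other end, let-7f-5p had 15955 and 25141 RPMM, let-7i-5p 1212 and 1625 RPMM, and miR-98-5p 306 and 324 RPMM, the last a 1.06-fold difference (1.02 to 1.10). With TruSeq, let-7f-5p was therefore the leading member, and with NEXTflex let-7a-5p.

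Close relatives in sequence differed from each other in their kit ratios. Positions are counted from 1 at the 5′ end, and the first base belongs to the miRNA named first. let-7a-5p and let-7b-5p differ by A17G and A19G and had log2 ratios of 2.05 and 3.80, whereas let-7a-5p and let-7f-5p differ by G12A and had 2.05 and 0.66. let-7a-5p and let-7c-5p, which differ by A19G, had 2.05 and 2.10. miR-10a-5p and miR-10b-5p, encoded in Hox clusters, differ by U12A and had -4.81 and -10.25. miR-27a-3p and miR-27b-3p, which differ by C19U, had -3.11 and -3.89. Reads that align equally well to both members of a pair were divided between them by the authors, and sequencing errors at the differing base can move a read from one to the other.

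For some of these pairs the direction itself turned. miR-26a-5p and miR-26b-5p share the seed UCAAGUA and differ by C11U and C21U. miR-26a-5p had 30682 RPMM with TruSeq and 7540 RPMM with NEXTflex, and miR-26b-5p had 3562 and 4638 RPMM. In the CAGUGCA seed group, miR-148a-3p and miR-152-3p differ by C9U, U10G and U20G. miR-152-3p had 150 RPMM with TruSeq and 812 RPMM with NEXTflex, 5.41-fold higher (5.18 to 5.65), opposite to miR-148a-3p with its 6.10-fold higher level (6.03 to 6.16) with TruSeq. By seed, the sum of the CAGUGCA group was 19271 RPMM with TruSeq and 4019 RPMM with NEXTflex, so the rarer relative moved against the total.

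Other families leaned to 1 kit. The group of miR-10, miR-99, miR-100 and miR-125 had 0 of 7 members higher with NEXTflex in RPMM (1 of 7 on the second scale), with a sum of 26634 RPMM with TruSeq and 2663 RPMM with NEXTflex. All 5 members of the miR-30 family were higher with TruSeq in RPMM, but 2 of the 5 turned on the second scale. All 4 of miR-15a, miR-15b, miR-16 and miR-195 (-5p), which act on cell cycle genes, were higher with NEXTflex on both scales, with miR-16-5p at 5879 and 11065 RPMM. In the miR-23/27/24 group, 4 of 5 were higher with TruSeq, miR-27b-3p leading with 20209 and 1360 RPMM, a 14.9-fold difference (14.6 to 15.1). miR-24-3p, from the same clusters, had 442 RPMM with TruSeq and 1923 RPMM with NEXTflex.

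In the miR-17~92 and miR-106b~25 clusters, 8 of 9 members could be placed and 4 of the 7 at 100 RPMM or more were higher with NEXTflex, 6 of 7 on the second scale. The most abundant of them, miR-92a-3p, had 18020 RPMM with TruSeq and 2358 RPMM with NEXTflex, against the count of its cluster. The pair miR-103-3p and miR-107-3p had a summed level of 2861 and 1725 RPMM, and miR-107-3p changed direction on the second scale. These counts stand beside 38.8% of all starts higher with NEXTflex in RPMM and 48.9% on the second scale, and with 2 to 9 members a group they describe these miRNAs only.

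**Figure D3:**
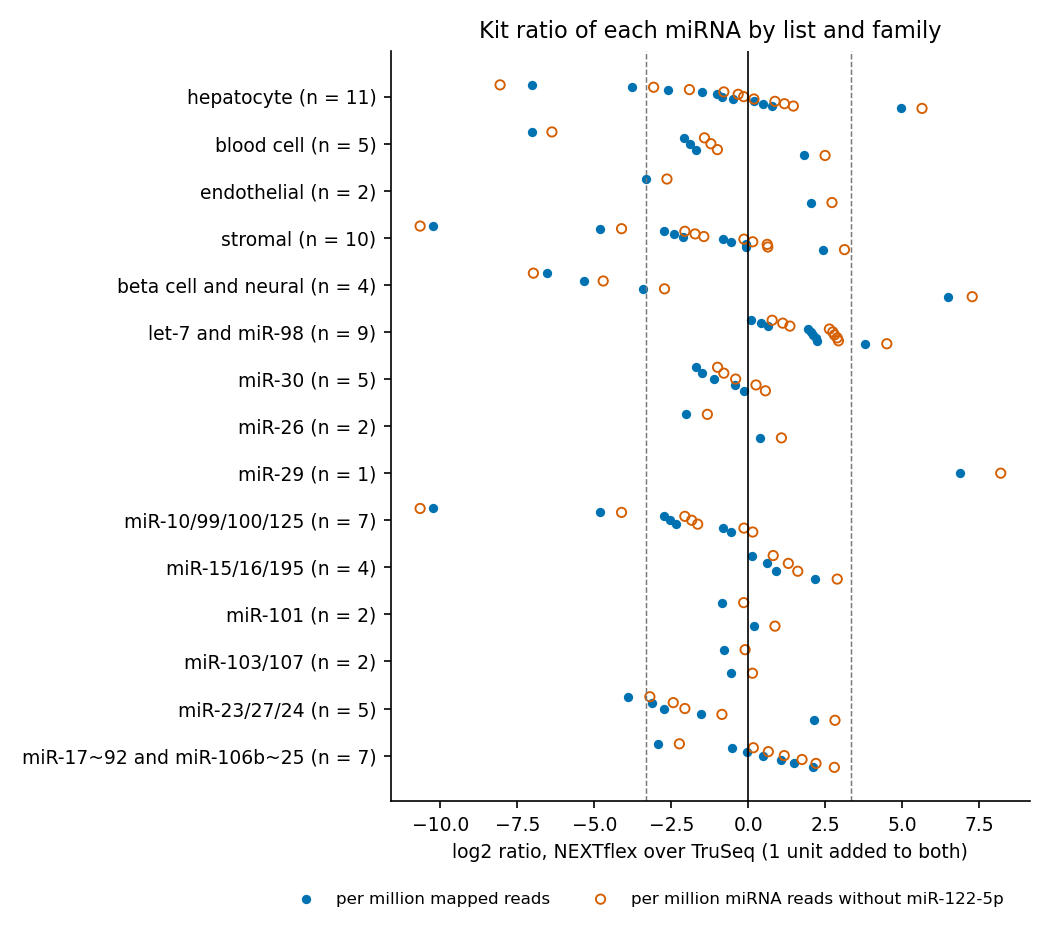
Log2 ratio of NEXTflex over TruSeq (x axis, 1 unit added to both) for each miRNA of the lists and families on the y axis, in RPMM as filled points and scaled to miRNA reads without miR-122-5p as open points. All 9 members of the let-7 row lie right of 0 and the 7 of the row that starts with miR-10 lie left of 0 in RPMM, while the hepatocyte row runs from -7.02 for miR-802-3p to 4.95 for miR-122-5p.

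The 5 miRNAs over 1000 RPMM with the largest ratio toward TruSeq were miR-10b-5p, miR-142-5p, miR-191-5p, miR-10a-5p and miR-27b-3p. miR-10b-5p had 1602 RPMM with TruSeq and 0.313 RPMM with NEXTflex, where it rests on 4.5 counts, so that its ratio is known only to lie between 2250 and 21150. miR-191-5p, a widely expressed miRNA, had 8218 and 186 RPMM, 44.1-fold higher (42.5 to 45.9) with TruSeq. miR-10a-5p had 17162 and 610 RPMM, 28.1-fold higher (27.5 to 28.7). miR-27b-3p and miR-10a-5p were thus still well above 100 RPMM with NEXTflex, whereas miR-10b-5p and miR-142-5p were below it.

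Toward NEXTflex, the same rule gave miR-122-5p, let-7b-5p, miR-320-3p with 259 RPMM with TruSeq and 1960 RPMM with NEXTflex, let-7d-5p with 1328 and 6246 RPMM, and the second copy of let-7c-5p. Below that level, the largest ratios belonged, after 1 RPMM was added, to miRNAs that were nearly undetected with TruSeq. miR-29a-3p, which represses collagens, had 0.485 RPMM with TruSeq and 176 RPMM with NEXTflex, a ratio between 183 and 839. Its relative miR-29c-3p had no count with TruSeq and 42.2 RPMM with NEXTflex. With the 0 set at 3 counts it was 232-fold higher, with a lower interval limit of 188-fold. miR-7a-5p, known from neuroendocrine cells, had 6.61 RPMM with TruSeq and 678 RPMM with NEXTflex, 102.6-fold higher (84.9 to 125.1).

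miRNAs of other cell types in whole liver were also measured with unequal results. In bulk tissue, fewer cells of a type and less RNA per cell cannot be told apart, but here the RNA was the same. miR-142-5p, a marker of blood cells, had 3777 RPMM with TruSeq and 27.7 RPMM with NEXTflex, 136-fold higher (123 to 151) with TruSeq. Of 8 blood cell miRNAs, 5 were placed and 4 of these were higher with TruSeq on both scales: miR-142-5p, miR-451 of red cells with 225 and 51.6 RPMM, miR-486-5p with 12355 and 3289 RPMM, and miR-150-5p of lymphocytes with 188 and 57.7 RPMM. miR-146a-5p, a feedback regulator of NF-κB signalling, was the exception, with 447 RPMM with TruSeq and 1556 RPMM with NEXTflex. miR-142-3p, miR-223-3p and miR-144-3p were not analysed here. The count of 4 of 5 stands beside 61.2% of the 178 starts higher with TruSeq in RPMM and 51.1% on the second scale.

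The endothelial hairpin miR-126 gave opposite results for its arms. miR-126-3p had 463 RPMM with TruSeq and 1884 RPMM with NEXTflex, and miR-126-5p had 8505 and 841 RPMM. The 5p arm was thus 18.4 times as abundant as the 3p arm with TruSeq, while with NEXTflex the 3p arm was 2.24 times as abundant as the 5p arm. Of 13 hairpins with both arms among the 114 miRNAs, the arms went in the same direction in 8 and in opposite directions in 5: miR-122, miR-126, miR-28, miR-378 and miR-802. On the second scale the split was 6 and 7, since the arms of miR-378 then agreed in sign and those of miR-30a, miR-30c and miR-423 no longer did. Of 10 stromal miRNAs, 9 were higher with TruSeq in RPMM and 6 on the second scale, against 61.2% and 51.1% of the 178 starts. The exception in RPMM was miR-152-3p, and 5 of the 10 (miR-10a-5p, miR-10b-5p, miR-99a-5p, miR-100-5p and miR-125b-5p) were also counted with the miR-10 family above. miR-143-3p of smooth muscle had 9373 and 1745 RPMM, whereas miR-199a-3p of mesenchymal cells had 353 and 335 RPMM, a log2 ratio of -0.08 in RPMM and of 0.62 on the second scale.

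miRNAs of beta cells and neurons, a list also chosen with earlier results known, were tabulated as well. miR-375-3p, a beta cell miRNA, had 39.97 RPMM with TruSeq and 26.7 RPMM with NEXTflex, miR-124-3p of neurons had 0 and 0.209 RPMM, and miR-9-5p had 1.92 and 0.487 RPMM. Of the 9 miRNAs of this list, 4 reached 100 RPMM: miR-7a-5p, higher with NEXTflex, and miR-182-5p, miR-127-3p and miR-541-5p, higher with TruSeq. miR-127-3p, from an imprinted cluster, had 644 RPMM with TruSeq and 14.9 RPMM with NEXTflex, and miR-541-5p of that cluster had 117 and 0.278 RPMM. The 2 muscle miRNAs of the list were not analysed here.

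Starts shifted by 1 or more bases, which carry another seed, differed more in this list than reference starts. A minor form can enter the list through only the library where it is high. The comparison with reference starts is thus partly set by the limit on detection. The median log2 ratio was -1.80 over the 49 shifted starts and -0.28 over the 129 reference starts in RPMM, and -1.12 and 0.41 on the second scale. After 1 RPMM was added, the largest ratio toward NEXTflex was that of miR-122-5p beginning 1 base late, with 10.0 RPMM with TruSeq and 4227 RPMM with NEXTflex. let-7b-5p beginning 1 base late had 0.152 and 169 RPMM, the 2 let-7c-5p copies had 2.40 and 2.46 RPMM against 142 and 178 RPMM, and miR-21-5p had 5.52 and 127 RPMM. Within each miRNA these late starts were minor with NEXTflex too: 0.785% of the reads of miR-122-5p, 0.664% of let-7b-5p and 0.638% of miR-21-5p, against 0.0572%, 0.00835% and 0.0385% with TruSeq.

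Toward TruSeq, 4 shifted starts had no count with NEXTflex. Set against 3 counts, miR-142-5p beginning 1 base late, at 316 RPMM with TruSeq, was 1514-fold higher. In the same way, miR-5099 beginning 2 bases early had 309 RPMM (1484-fold) and miR-10a-5p beginning 1 base early 285 RPMM (1367-fold). The first miR-92a-3p copy beginning 1 base early had 176 RPMM (843-fold). These folds treat counts as independent molecules. The median count behind an exact NEXTflex alignment of 20 nt or more was 61, so they are not lower bounds. The late starts of miR-10b-5p and miR-191-5p had 211 and 204 RPMM with TruSeq and 0.5 and 1 counts with NEXTflex, where 0.5 is a read shared between places. A shifted start is read against its own reference start: miR-10a-5p and miR-191-5p were themselves far lower with NEXTflex.

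Shares within a miRNA do not depend on scaling. Over 103 reference starts with at least 1000 counts in both libraries, the reference start held a median of 98.6% of the reads within 5 nt with TruSeq and 98.8% with NEXTflex, and it differed by more than 10 percentage points in 9. miR-192-5p began at its reference start in 72.6% of reads with TruSeq and 84.0% with NEXTflex, and 1 base late in 26.6% and 15.4%. miR-101a-3p began at the reference start in 68.4% and 82.9%, and miR-140-3p in 31.2% and 53.6%. miR-142-5p, with only 399 reference-start counts in the NEXTflex library, began there in 52.0% and 20.2%. So for these miRNAs the dominant 5′ form, or the weight of the second, was not the same with both kits.

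The commonest read length was the same for 70 of the 103 starts and another for 33, and the mean length differed by a median of 0.05 nt (from -2.66 to 1.11 nt, NEXTflex minus TruSeq). For miR-122-5p the commonest length was 23 nt in both libraries, in 58.9% of reads with TruSeq and 44.1% with NEXTflex. For miR-30a-5p it was 24 nt with TruSeq and 23 nt with NEXTflex, and for miR-21-5p likewise 24 and 23 nt. Lengths depend on where the adapter was cut off, which was done differently for the 2 kits.

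Bases at the 3′ end that do not match the genome can be added to a miRNA after it is cut, mostly A or U. Their share had a median of 14.4% with TruSeq and 18.3% with NEXTflex over the 103 starts, higher with NEXTflex in 57 and with TruSeq in 46. Added A on miR-122-5p, a form known in liver, was seen in 11.8% of reads with TruSeq and 16.8% with NEXTflex. Single miRNAs differed much more, from 53.7 points lower with NEXTflex to 50.2 points higher. miR-152-3p had unmatched 3′ bases in 82.4% of reads with TruSeq and 28.7% with NEXTflex, and the first copy of miR-92a-3p in 64.9% and 44.0%. miR-191-5p, in contrast, had 3.22% and 46.5%, and miR-99a-5p 6.89% and 57.1%, so the difference had no common direction.

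End bases were tabulated as a description over the 95 miRNAs of the list with a RefSeq sequence, whose median log2 ratio was -0.08. By first base, the median was 0.38 for the 53 that begin with U, of which 31 were higher with NEXTflex in RPMM, against 44 of all 95 (46.3%), -0.31 for the 24 that begin with A and -1.07 for the 17 that begin with C. By second base, it was 0.56 for the 25 with G and -1.41 for the 14 with U. By last bases, it was 1.28 for the 14 that end in UU, of which 11 were higher with NEXTflex, and -2.72 for the 10 that end in CU. The 9 let-7 members all have G as second base, and those whose sequences are printed above begin with U, so these groups overlap with that family. Across the 95 miRNAs, GC content had a Pearson's r of -0.06 with the log2 ratio, and no order by GC was seen.

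The MIN6 libraries show how the same kits behaved on other RNA. In MIN6, 1 NEXTflex library is set beside the mean of 3 TruSeq libraries, which differ from it also in RNA preparation, sequencing centre, date and instrument (GAIIx against HiSeq), so that kit and these cannot be told apart there. Of the 178 liver starts, 122 are also named in MIN6, and 99 of them had the same direction in both. Pearson's r of the log2 ratios was 0.818 and Spearman's rho 0.858 over these 122 starts, which share libraries and are not independent. Of the 122, 22 differed over 10-fold in liver, all 22 had the same direction in MIN6, and 11 were over 10-fold there too, where 18 of the 122 were (14.8%). The median log2 ratio of the 122 was -0.16 in liver and 0.76 in MIN6, where 59.0% of them were higher with NEXTflex.

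miR-7a-5p, miR-27b-3p and miR-191-5p had the same direction in both sources, the first and second of these with ratios of another size. miR-7a-5p had 904 RPMM with TruSeq and 248933 RPMM with NEXTflex in MIN6, where it is abundant, beside 6.61 and 678 RPMM in liver. miR-27b-3p had 74783 and 2439 RPMM in MIN6, and miR-191-5p had 21985 and 523 RPMM. miR-29a-3p and miR-10b-5p were closer in MIN6 than in liver. miR-29a-3p had 4431 RPMM with TruSeq and 6580 RPMM with NEXTflex in MIN6, beside 0.485 and 176 RPMM in liver. miR-10b-5p, which is not among the 122 starts, had 7.55 and 7.69 RPMM in MIN6, beside 1602 and 0.313 RPMM in liver.

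The 3 TruSeq libraries of MIN6 also give the spread of a repeated measurement, with an instrument other than that of liver. Over 217 starts of at least 100 RPMM, the highest library exceeded the lowest by a median of 1.09-fold and by at most 1.36-fold. Of the 178 liver starts, 24 differed between the kits by less than that. This spread is not that of liver, for which no repeat exists.

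**Figure D4:**
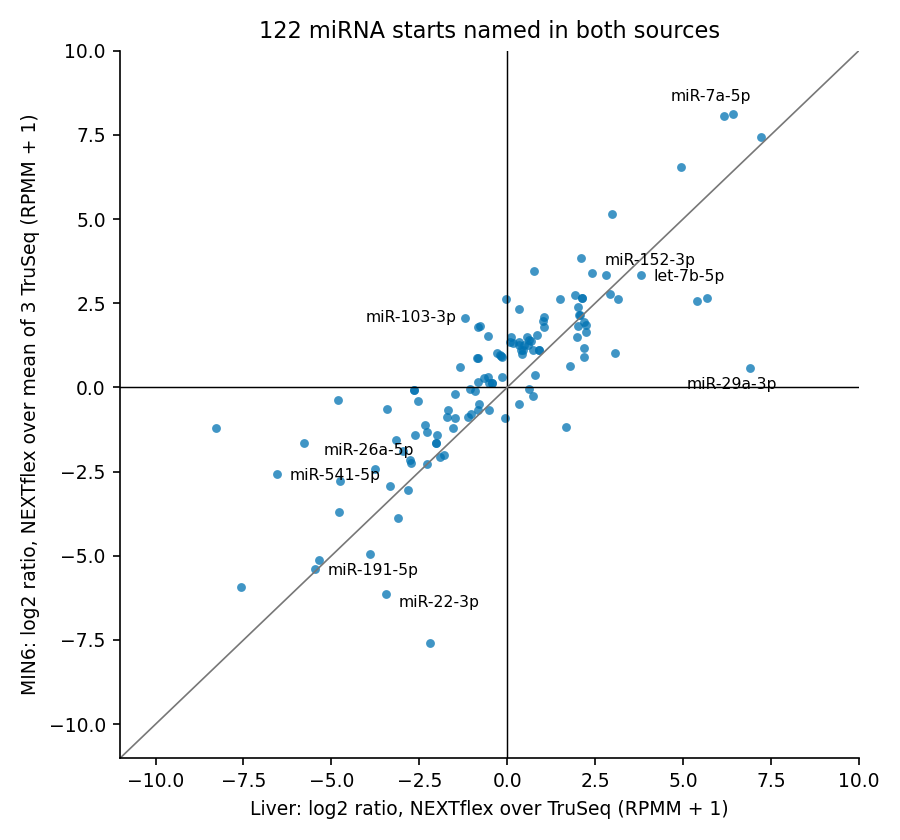
Log2 ratio of NEXTflex over TruSeq in liver (x axis, 1 library each) and in MIN6 (y axis, 1 NEXTflex library over the mean of 3 TruSeq libraries), after 1 RPMM was added, for the 122 starts named in both. Most points (99 of 122) lie in the quadrants of equal sign, and miR-29a-3p, with 176 RPMM in liver with NEXTflex and 0.485 RPMM with TruSeq, lies at 6.89 in liver and 0.57 in MIN6.

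Reads outside named miRNAs made up 53.9% (53.8 to 53.9) of the counts with TruSeq and 16.5% (16.5 to 16.6) with NEXTflex. They differed in length as well. With TruSeq the commonest length was 33 nt (10.6% of these reads) and with NEXTflex 28 nt (5.72%), and the medians were 30 and 27 nt. Reads of 26 to 36 nt outside miRNAs held 26.3% of all counts with TruSeq and 7.64% with NEXTflex, those of 14 to 17 nt 9.70% and 1.91%, and those over 36 nt 6.80% and 1.77%. These shares of all counts follow the larger share of the whole class with TruSeq. Within the class, 26 to 36 nt held 48.9% with TruSeq and 46.2% with NEXTflex, over 36 nt 12.6% and 10.7%, and 14 to 17 nt 18.01% and 11.5%, whereas 18 to 25 nt held 20.5% and 31.5%. Few reads were over 38 nt with NEXTflex or over 40 nt with TruSeq, and over the shared lengths of 37 and 38 nt the class held 6.45% with TruSeq and 10.7% with NEXTflex, so the direction over 36 nt rests on where the reads end.

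**Figure D5:**
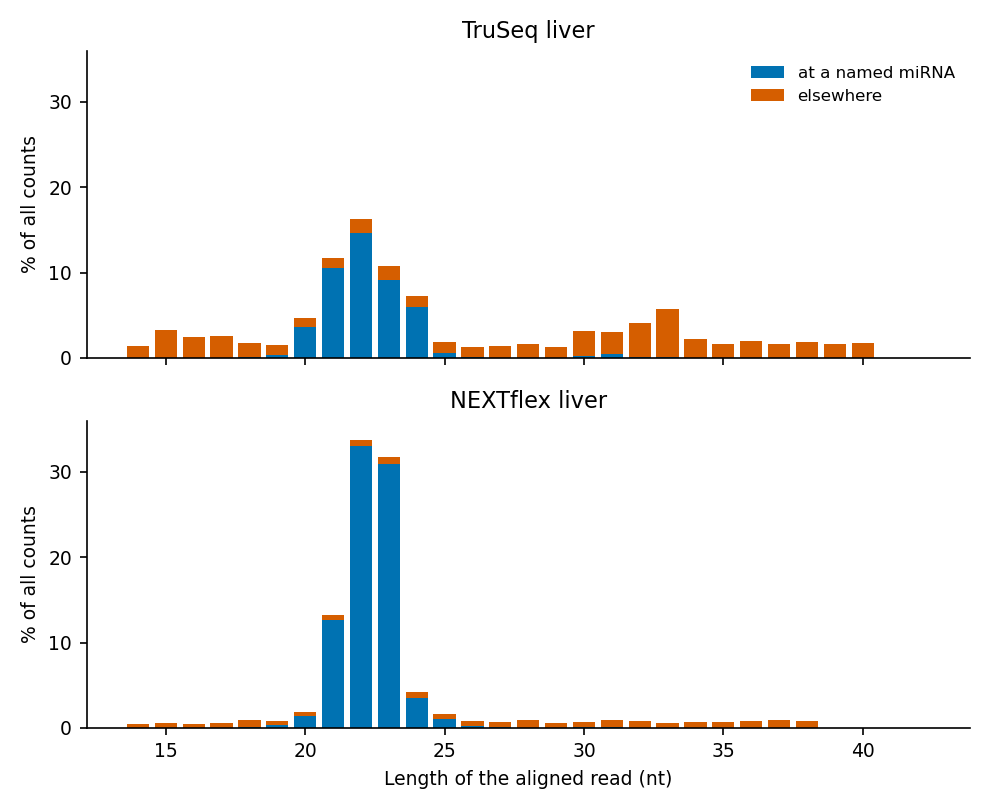
Share of all counts (y axis, %) at each aligned read length in nt (x axis) in the TruSeq and the NEXTflex liver library, split into reads at a named miRNA and reads elsewhere. Both libraries peak at 22 nt, and the TruSeq library has a second mass of other reads around 33 nt.

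Single positions were counted as well. They were kept at 100 RPMM in either library, so their direction partly restates the larger share of the class with TruSeq. Of 478 starts outside miRNAs with at least 100 RPMM in 1 library, 396 were higher with TruSeq (82.8%), 211 of them over 10-fold (44.1%), and 43 were over 10-fold higher with NEXTflex (9.0%). The median log2 ratio was -2.98. With NEXTflex 85 of the 478 had no count, and with TruSeq 3. Positions of the same sequence share reads that the authors divided among them, so these starts are not independent.

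The most abundant starts outside miRNAs with TruSeq were 7 positions with reads of mostly 33 nt, the first at position 173041574 of chromosome 1 (mm9, + strand). Their levels were 7600 to 11767 RPMM with TruSeq and 72.5 to 143 RPMM with NEXTflex, 78.7-fold to 103-fold apart, and in MIN6 they had 26.99 to 82.7 RPMM with TruSeq and 146 to 379 RPMM with NEXTflex. The TruSeq reads of MIN6 were recorded to 32 nt only, against 39 nt in the NEXTflex library, so reads of 33 nt could not be seen there with TruSeq and these values are not comparable between the kits in MIN6. The start at position 54148594 of chromosome 11 (mm9, - strand) had reads of 16 nt in 99.9% of cases, with 5845 RPMM with TruSeq and no count with NEXTflex. In MIN6 it had 28852 to 49265 RPMM with TruSeq and again no count with NEXTflex. Toward NEXTflex, the start at position 30256408 of chromosome 14 (mm9, + strand) had 2.77 RPMM with TruSeq and 2619 RPMM with NEXTflex. No transcript was matched to these positions, but the search held only short non-coding GENCODE classes and a few named transcripts, without nuclear tRNAs.

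For starts with many mismatches, a match to GENCODE transcripts was sought by exclusion, since a mismatching letter is never the genomic base. This gave a name to 157 of 428 starts examined. Genes below are sums over such starts of at least 20 RPMM in 1 liver library. Mitochondrial tRNA fragments had 21689 RPMM with TruSeq and 2262 RPMM with NEXTflex, with all 9 genes higher with TruSeq and 6 of them over 10-fold. Of the 478 starts, 82.8% were higher with TruSeq and 44.1% over 10-fold. mt-Tg, the tRNA for glycine, had 11382 and 1133 RPMM, mt-Tq, that for glutamine, 1126 and 24.7 RPMM, and mt-Ty, that for tyrosine, 1308 RPMM and no count. Reads on the mitochondrial chromosome in all made up 3.39% of counts with TruSeq and 0.729% with NEXTflex.

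Fragments of snoRNAs, which guide modification of rRNA, differed less. They had 19056 RPMM with TruSeq and 8794 RPMM with NEXTflex, with 23 of 29 genes higher with TruSeq and 5 over 10-fold. Of the 478 single starts, chosen by another limit, 82.8% and 44.1% were. Snord85 had 2123 and 2015 RPMM, and Gm23969 went the other way with 757 and 1415 RPMM. Fragments of Gm42418, a transcript that overlaps rRNA repeats, had 10322 and 457 RPMM, and of the mitochondrial rRNA mt-Rnr2 4493 and 1253 RPMM. The less abundant mt-Rnr1, with 81.4 and 128 RPMM, and Rmrp, with 44.1 and 90.5 RPMM, went the other way. The snRNA and misc_RNA fragments matched were reverse cases, the former with 2.37 RPMM with TruSeq and 1050 RPMM with NEXTflex over 3 genes, the latter with 23.3 and 177 RPMM. The difference between the kits was thus unequal between RNA classes.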

How the data were processed

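Small RNA-seq was measured in 2 liver libraries, set beside 4 MIN6 libraries. The deposited values are expected counts: the authors cut off TruSeq 3′ adapters with cutadapt, removed the first and last 4 bases of NEXTflex reads, aligned reads to mm9 with Bowtie (versions not given in the sources used here), and divided a read with several equally good places among them. The deposited files hold 1 line per alignment, with its position, edit string and count. No molecular identifiers were used here.

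The counts of all alignments with the same 5′ end were added up and scaled by the study's mapped reads (RPMM) or by miRNA reads without miR-122-5p. Starts were named by matching the levels that the study lists (relative tolerance 3e-05), which placed 178 of 178, 4 of them at more than 1 position. Of 128 with at least 100 mismatching reads, 125 had under 5% of these in conflict with the RefSeq mature sequence of their name. RefSeq gave a mature sequence for 141 of the 178 (not for miR-320-3p, for example). A miRNA read begins within 5 nt of a named start. Log2 ratios have 1 unit added, and folds with intervals are plain ratios. Intervals (95%) are exact Poisson for a level, exact binomial for a share and conditional exact binomial for a ratio. A fold against 0 was set against 3 counts in that library. Unmatched 3′ bases were read from edit strings. Starts outside miRNAs with at least 60 kinds of mismatch were matched to short non-coding GENCODE M21 transcripts, nuclear tRNAs not included. A mismatching letter is not the genomic base, so a transcript with that letter at that place was in conflict. At most 0.2% of mismatching reads could be in conflict, with an overlap of at least 28 nt. Coordinates of the 2 builds were never mixed.

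Members and lists were chosen with earlier results of these data known. Named miRNAs are the 10 most abundant reference starts of either library, the 5 largest ratios in each direction among reference starts over 1000 RPMM, the 5 largest among shifted starts, starts at 0 in 1 library, and the lists and families. Outside miRNAs, the most abundant starts were taken; the chromosome 14 start, the transcripts and the single 5′ and 3′ forms were chosen after their values were seen. The alternatives were other scalings, added constants, filters and windows. The ratio calculation was tested on simulated data. Calculations used scipy 1.17.1, pandas 2.3.3 and numpy 2.4.6 under Python 3.11.15, and plots matplotlib 3.10.9.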

Additional observations from a re-analysis of the deposited data

Results flagged for a closer look

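For 12 of 75 named starts that are present in both sources, the NEXTflex library lay on one side of the TruSeq library in liver and on the other side of all 3 TruSeq libraries in MIN6. With 1 NEXTflex library in each source, the difference between the sources was not tested. In log2 ratios (NEXTflex over TruSeq, liver first, then MIN6), miR-93-5p had -0.0443 and 2.62, miR-107-3p -0.558 and 1.54, and the 2 copies of miR-103-3p -0.83 and 1.81 and -0.766 and 1.81. The 2 copies of miR-125b-5p had -0.818 and 0.889 and -0.851 and 0.881, miR-99a-5p had -0.548 and 0.307, and miR-101a-3p had -0.843 and 0.166. Smaller still were the values of miR-30d-5p (-0.139 and 0.306), of miR-25-3p (-0.53 and 0.142) and of both copies of miR-30c-5p (-0.445 and 0.145 each). In all 12 the liver value was below 0 and the MIN6 value above it, but the scale of miRNA reads without miR-122-5p raises each liver value by 0.70. On that scale 7 of the 12 were above 0 in liver as well (miR-93-5p, miR-107-3p, miR-99a-5p, miR-30d-5p, miR-25-3p and both copies of miR-30c-5p), and 5 stayed below 0.

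miR-122-5p, a miRNA of hepatocytes, had 127.7 RPMM in the NEXTflex library of MIN6, an insulinoma line, and 0.151 to 0.581 RPMM in the 3 TruSeq libraries. The NEXTflex value was 0.0240% of the level in the NEXTflex liver library. The origin of these reads was not tested.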

How the results depend on the processing

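No paired analysis was possible because each kit has 1 liver library. The number of the 178 starts over 10-fold was 40, and it was 19 of 131 when starts within 5 nt were summed, 17 of 83 with a limit of 500 RPMM and 71 of 410 with no limit, so these lists also differ in length. Reference starts alone gave 19 of 129. Those higher with NEXTflex were 11, and 17 with miRNA reads without miR-122-5p, 17 with median-of-ratios size factors, 5 with summed starts, 3 at 500 RPMM and 17 with no limit. Those higher with TruSeq were 29, and 19 with exact alignments, 14 with summed starts, 14 at 500 RPMM and 54 with no limit. The median log2 ratio was -0.78, and -0.0903 without miR-122-5p, -0.67 by the sum of counts, -0.12 by size factors, -0.34 with exact alignments, -0.30 with summed starts, -0.66 at 50 RPMM and -0.53 with no limit. The share outside miRNAs was 53.85% with TruSeq, and 53.80% with a window of 10 nt, 54.65% with 2 nt, 51.09% with exact and 37.88% with whole-number alignments, 49.97% of mapped reads, 54.05% with liver names and 53.62% with other hairpins counted as miRNA, an alternative chosen after seeing the data. With NEXTflex it was 16.53%, and 16.70% with 2 nt, 15.48%, 11.77%, 16.31%, 16.67% and 16.49% in the same order. No such value turned direction, and the cause of the changes was not tested beyond the construction of each alternative. Of 96 named starts, 11 changed direction when scaled without miR-122-5p, 11 by size factors and 4 by the sum of counts. Whole-number counts changed 4, summed starts 3, exact alignments 1, and 0.1 or 5 RPMM added 0 each. Only direction is counted here, and the size of ratios moved as well. Values under 1 RPMM rest on few counts, and replicate error in liver is unknown.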
